A study of Mus musculus with 4 samples.

Results

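Solute carrier genes, named Slc with a family number, encode the largest group of membrane transporters of mammalian cells. They are described here in ILC3s (group 3 innate lymphoid cells) from mouse small intestine, tissue-resident lymphocytes that lack T and B cell receptors and release IL-22 and IL-17. The members were chosen by name and by level: every gene whose name starts with Slc and a digit and whose FPKM (fragments per kilobase of gene, scaled to the reads of the library) was 1 or more in either library of a pair. Slc2a1, Slc2a3 and Slc16a3, which carry glucose and lactate, were left out by that rule. In the pair of IL-17D knockout (KO) and WT ILC3s, 161 Slc rows were tabulated and 122 were members, out of 12376 genes that reached the same level. In the pair of CD93-positive and CD93-negative ILC3s, 222 were tabulated and 166 were members, out of 10117 genes. The levels that chose the members are given below as a description only.

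There were 4 libraries, 1 per group, so no value has a replicate error and each comparison is between 2 libraries. The sort took live cells with low CD45 and high CD90.2 that lacked lineage markers such as CD3. WT ILC3s came from wild-type mice and KO ILC3s from mice without Il17d, which encodes a cytokine of the IL-17 family. The CD93-positive and CD93-negative ILC3s both came from WT mice, and per the labels a cell suspension was cultured for 12 h with no stimulus before they were sorted by CD93, a surface glycoprotein. All groups were labelled as steady state. The labels carry this protocol on every library but tie it to the CD93 sort, so it is unclear if KO and WT cells were cultured too. The sources used here do not give the strain, age or sex, or how many mice were used for a library. The study set KO beside WT ILC3s, and the CD93-positive beside the CD93-negative fraction.

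Solute carriers move nutrients, ions and cofactors across the plasma membrane and across the membranes of mitochondria, lysosomes, the endoplasmic reticulum and the Golgi. They work as facilitated carriers, as exchangers, or as cotransporters that use a sodium or proton gradient. Lymphocytes are known to depend on amino acid carriers when they grow and make cytokines. In the small intestine the same gene families serve the absorptive enterocytes, which take up amino acids, peptides, sugars and nucleosides from food.

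The scaling totals behind the FPKM were 27002581 reads (KO), 26087274 (WT), 11712846 (CD93-positive) and 11790580 (CD93-negative). The ILC3 cytokine gene Il22 was measured in both pairs, at 11771 FPKM (KO), 16102 FPKM (WT), 7934 FPKM (CD93-positive) and 1655 FPKM (CD93-negative). Cd93 was 155 FPKM in the library labelled CD93-positive and 79.9 FPKM in the one labelled CD93-negative, and 20.5 FPKM in KO and 43.5 FPKM in WT ILC3s. Il17d was not analysed here, so the knockout label was not checked against its target. Markers of other cells were present as well. Exocrine pancreas markers summed to 726 FPKM in KO and 0.279 FPKM in WT ILC3s, with 4 of the 6 at 0 in WT. They summed to 298 FPKM in CD93-positive and 467 FPKM in CD93-negative ILC3s over 5 measured markers. All 3 measured myeloid markers were at least 2-fold higher in KO ILC3s (sums 59.1 and 11.8 FPKM), as were 4 of 6 T cell markers (264 and 134 FPKM) and 2 of 4 B and plasma cell markers (241 and 129 FPKM). In bulk RNA, fewer cells of a type and less RNA per cell cannot be told apart.

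In the CD93 pair a few transporter genes stood far from the diagonal. Slc15a3, a lysosomal carrier of histidine and small peptides, was the most abundant member of the CD93-positive library. It was higher there than in the CD93-negative library, as were the sugar carriers Slc2a6 and Slc37a2 and the small-molecule carriers Slc6a7 and Slc6a13 of the neurotransmitter transporter family. Slc6a20a, Slc16a10, Slc28a2 and Slc27a6, which carry proline, aromatic amino acids, nucleosides and fatty acids, were lower in the CD93-positive library. By the log2 difference of FPKM + 1, 6 members (3.61%) were higher in CD93-positive ILC3s by 2-fold or more, where 2.49% of all measured genes were. Another 4 members, or 2.41%, were at least 2-fold lower, where 1.94% of all measured genes were. Both shares of members lie close to those of all genes. The median difference was 0.07 (log2) over the 166 members and 0.04 over all measured genes, and 97 members were above 0.

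**Figure D1:**
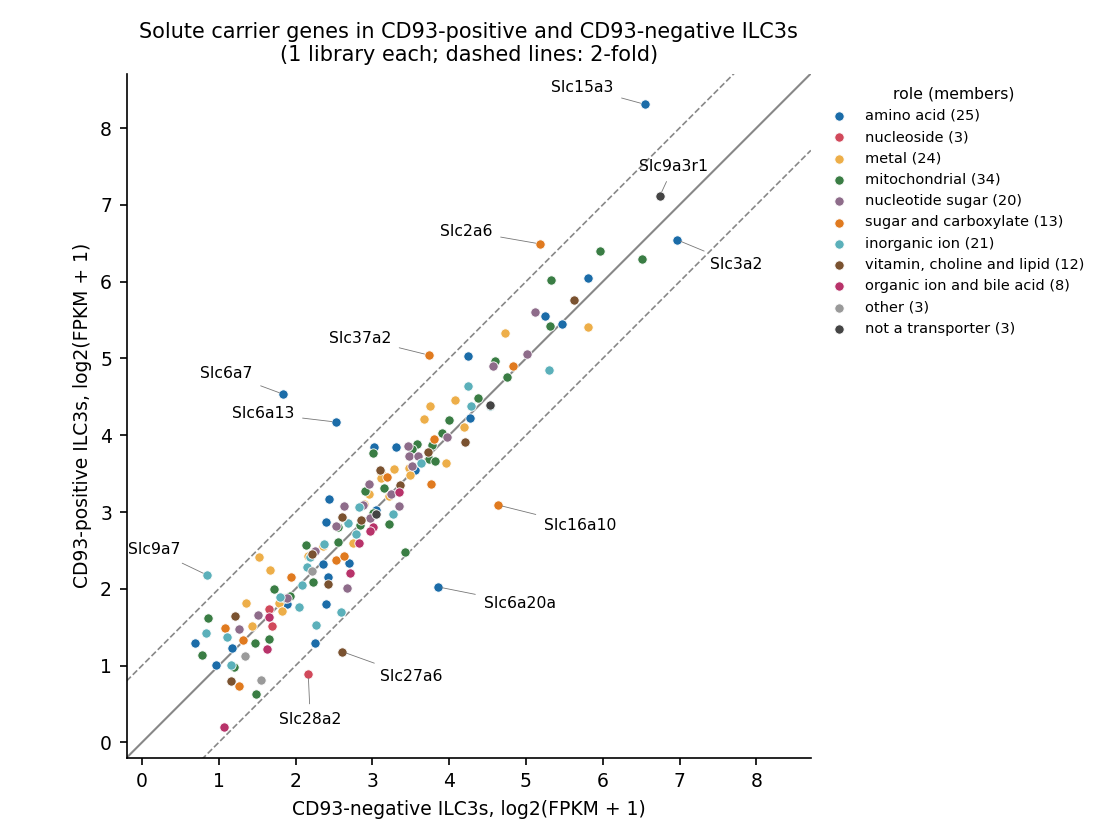
Levels of the 166 solute carrier genes in CD93-negative (x axis) and CD93-positive (y axis) ILC3s, both as log2(FPKM + 1), coloured by role, with equality as a solid line and 2-fold as dashed lines. Slc15a3 lies highest, at 316 FPKM in CD93-positive ILC3s, and 10 points lie on or outside the dashed lines.

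The promoters of 5 of these 10 genes are printed to show the sequence before the start of genes that were higher (Slc2a6, Slc37a2) and lower (Slc6a20a, Slc16a10, Slc28a2) in CD93-positive ILC3s. Each is the 250 bases before the RefSeq transcription start in GRCm38.p6, read 5′ to 3′ on the strand of the gene. Capitals mark a match to the AP-1 site TGANTCA.
Slc2a6, chr2:27027999-27028248, minus strand: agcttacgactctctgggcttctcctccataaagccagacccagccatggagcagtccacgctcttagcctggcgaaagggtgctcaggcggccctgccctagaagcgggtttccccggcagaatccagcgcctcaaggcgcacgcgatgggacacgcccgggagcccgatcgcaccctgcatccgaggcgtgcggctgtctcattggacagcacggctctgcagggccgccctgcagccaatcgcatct
Slc37a2, chr9:37255739-37255988, minus strand: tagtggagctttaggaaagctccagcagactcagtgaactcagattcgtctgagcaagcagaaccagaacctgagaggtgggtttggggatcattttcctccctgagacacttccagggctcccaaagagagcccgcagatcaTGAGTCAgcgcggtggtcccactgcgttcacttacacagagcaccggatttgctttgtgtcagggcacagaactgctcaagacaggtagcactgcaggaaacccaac
Slc6a20a, chr9:123678833-123679082, minus strand: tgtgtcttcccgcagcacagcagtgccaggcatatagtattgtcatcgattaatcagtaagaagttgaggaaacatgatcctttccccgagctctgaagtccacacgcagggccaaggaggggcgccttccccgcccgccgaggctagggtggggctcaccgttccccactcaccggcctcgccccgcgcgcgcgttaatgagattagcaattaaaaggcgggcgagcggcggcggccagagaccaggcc
Slc16a10, chr10:40142255-40142504, minus strand: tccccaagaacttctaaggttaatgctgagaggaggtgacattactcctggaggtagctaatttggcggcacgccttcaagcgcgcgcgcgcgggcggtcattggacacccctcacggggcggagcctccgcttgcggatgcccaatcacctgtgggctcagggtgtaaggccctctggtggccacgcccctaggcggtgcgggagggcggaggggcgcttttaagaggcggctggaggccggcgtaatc
Slc28a2, chr2:122426185-122426434, plus strand: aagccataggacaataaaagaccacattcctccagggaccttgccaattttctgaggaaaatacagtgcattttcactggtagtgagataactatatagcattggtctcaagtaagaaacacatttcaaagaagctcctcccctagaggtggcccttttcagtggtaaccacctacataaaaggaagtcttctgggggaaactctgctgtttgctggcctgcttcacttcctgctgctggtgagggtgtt
Slc37a2 held the one match, TGAGTCA, from 107 to 101 bases before its start. The other motifs searched, on both strands, were the E-box CACGTG, the nuclear receptor half-site AGGTCA and the T-box half-site AGGTGT, and none of these letters were found in the 5 windows. Over 32536 promoter windows of the same length, TGANTCA was present in 6.73%, CACGTG in 6.04%, AGGTCA in 14% and AGGTGT in 11.9%. The 5 windows held 65.2%, 53.6%, 61.2%, 64.4% and 45.2% G and C in the order printed, so the Slc28a2 window was the richest in A and T.

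Amino acid and peptide carriers made up 25 of the 166 members, with a median difference of 0.04 (log2). In CD93-positive ILC3s 3 of them were at least 2-fold higher and 1 lower, where 2.49% and 1.94% of all measured genes were. Slc15a3 (ENSMUSG00000024737.2; chromosome 19, 10839727 to 10859362 in the GENCODE M21 annotation of GRCm38, plus strand) was 316 FPKM in CD93-positive and 92.4 FPKM in CD93-negative ILC3s. The ratio was 3.42-fold (95% counting interval 3.32 to 3.52) from 20336 and 5982 reads. It alone made up 12.7% of the summed FPKM of all members in the CD93-positive library and 4.55% in the CD93-negative one. Of its annotated exon bases, 28.1% are shared with Tmem132a on the opposite strand, which was 25.6 and 6.66 FPKM in the same libraries. No source used here says if reads were counted by strand, so reads in the shared bases cannot be told apart. Slc15a4, the related lysosomal carrier known for its part in endosomal Toll-like receptor responses, was 7.99 and 4.42 FPKM, and did not reach 2-fold.

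Slc6a7, which encodes a high-affinity proline transporter known from brain synapses, had the highest ratio of any member. It was 22.2 FPKM in CD93-positive and 2.59 FPKM in CD93-negative ILC3s, an 8.57-fold ratio (95% counting interval 7.0 to 10.6). Slc6a13, a carrier of GABA and taurine, was 17 and 4.76 FPKM, a ratio of 3.58-fold (3.0 to 4.28). Slc6a6, the main taurine transporter, was 31.7 and 18 FPKM, under 2-fold. Of the 5 members of the SLC6 family, these 3 were thus higher in the CD93-positive library and 2 were lower, Slc6a20a among them. Slc6a20a carries proline and other imino acids and was 3.07 FPKM in CD93-positive and 13.4 FPKM in CD93-negative ILC3s, 4.37-fold lower (3.65 to 5.27). Of its 4084 annotated exon bases, 22 are shared with the chemokine receptor gene Ccr9 on the opposite strand, which was itself 3.64 and 13.5 FPKM.

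Slc16a10 belongs to the monocarboxylate family by number but carries aromatic amino acids. It was 7.52 FPKM in CD93-positive and 23.9 FPKM in CD93-negative ILC3s, 3.18-fold lower (95% counting interval 2.91 to 3.48). Slc15a2, a plasma membrane carrier of small peptides, was 1.45 and 3.78 FPKM, a log2 difference of -0.96 that lies just inside the limit. The carriers best known from activated lymphocytes were expressed in both fractions at closer levels. Slc3a2, the heavy chain (CD98) that brings Slc7 light chains to the membrane, was 92.5 FPKM in CD93-positive and 124 FPKM in CD93-negative ILC3s. Its partner for large neutral amino acids, Slc7a5 (LAT1), was 13.4 and 7.11 FPKM, a ratio of 1.89-fold (1.64 to 2.17). The heavy chain was thus lower and this light chain higher in the CD93-positive library.

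Glutamine carriers differed little. Slc1a5 (ASCT2), an exchanger of neutral amino acids, was 65.0 FPKM in CD93-positive and 55.0 FPKM in CD93-negative ILC3s. Slc38a1 was 17.7 and 18.4 FPKM, and Slc38a2 was 42.7 and 43.4 FPKM. The counting intervals of both Slc38 ratios include equality. Slc7a1, which carries arginine and lysine, was 13.4 and 8.94 FPKM. On a list of 22 amino acid sensing and response genes, 1 of 20 measured genes was at least 2-fold higher and none lower. It was Asns, which makes asparagine, at 6.24 FPKM in CD93-positive and 2.26 FPKM in CD93-negative ILC3s.

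**Figure D2:**
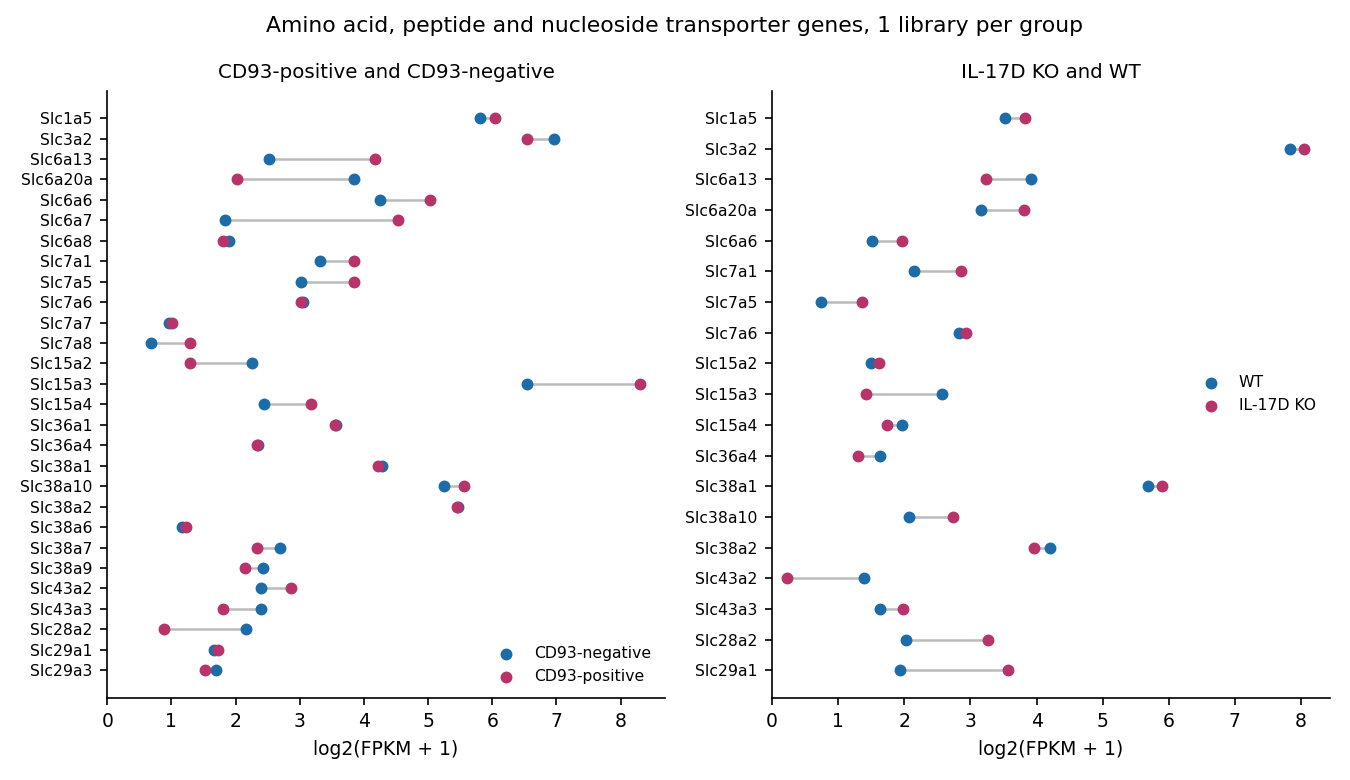
Levels of the amino acid, peptide and nucleoside carriers as log2(FPKM + 1), for CD93-positive and CD93-negative ILC3s on the left and IL-17D KO and WT ILC3s on the right, with 1 point per library. The longest lines are those of Slc6a7, Slc6a20a and Slc15a3 on the left and of Slc29a1 on the right, where Slc28a2 and Slc29a1 are both higher in KO.

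Among 13 sugar and carboxylate carriers by family number, 2 were higher in CD93-positive ILC3s by 2-fold or more and 1, Slc16a10, was lower, where 2.49% and 1.94% of all measured genes were. Slc2a6 (GLUT6), a lysosomal hexose transporter, was 89.0 FPKM in CD93-positive and 35.3 FPKM in CD93-negative ILC3s, a ratio of 2.52-fold (95% counting interval 2.37 to 2.69). Slc37a2, a phosphate-linked glucose-6-phosphate antiporter of the endoplasmic reticulum, was 32 and 12.3 FPKM, 2.61-fold (2.42 to 2.81). Its relative Slc37a4, the glucose-6-phosphate carrier mutated in glycogen storage disease, was 9.98 and 8.16 FPKM. Slc37a3 was 9.30 and 12.6 FPKM, so of the SLC37 genes named here Slc37a2 alone passed 2-fold. The proton exchanger Slc9a7 of the trans-Golgi network was 3.53 FPKM in CD93-positive and 0.799 FPKM in CD93-negative ILC3s. It was the one inorganic ion carrier of 21 past the limit, and is named after its values were seen.

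Nucleoside carriers were few and low in the CD93 pair. Slc28a2, a sodium-dependent carrier of purine nucleosides, was 0.852 FPKM in CD93-positive and 3.49 FPKM in CD93-negative ILC3s. That is 4.09-fold lower (95% counting interval 2.91 to 5.88) from 42 and 173 reads. The equilibrative carrier Slc29a1 was 2.32 and 2.16 FPKM, and the lysosomal Slc29a3 was 1.87 and 2.24 FPKM. With 1 added to both values, none of 15 measured genes of purine and pyrimidine salvage and adenosine turnover passed 2-fold in either direction. By the ratio of FPKM alone Uck2 was past it (14.3 and 7.03 FPKM). Ada and Pnp2 were so in the other direction (0.938 and 1.99 FPKM, and 0.323 and 1.07 FPKM). Slc27a6, of the fatty acid transport family, was 1.27 FPKM in CD93-positive and 5.09 FPKM in CD93-negative ILC3s, 4.0-fold lower (2.78 to 5.90).

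Of 28 transporter genes listed as typical of enterocytes, 8 were measured in the CD93 pair, and 3 of them, Slc6a20a, Slc16a10 and Slc28a2, were lower in CD93-positive ILC3s by 2-fold or more, where 1.94% of all measured genes were. The list was chosen with these differences known. The most abundant of the 8, the zinc importer Slc39a4, was 41.7 FPKM in CD93-positive and 54.9 FPKM in CD93-negative ILC3s. Epithelial markers summed to 25.5 FPKM in CD93-positive and 45.5 FPKM in CD93-negative ILC3s, and of 6 measured 1, Epcam, was at least 2-fold lower. Among T cell markers, 2 of 3 measured were lower, with sums of 2.70 and 9.73 FPKM. Myeloid markers summed to 31 and 22.8 FPKM, with 0 of 3 past 2-fold. The one measured stromal marker, Lum, was higher in CD93-positive ILC3s (11.3 and 3.95 FPKM). The part of these cells in the differences of the transporter genes was not tested.

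Of 24 metal carriers in the CD93 pair, 0 passed 2-fold in either direction, where 2.49% of all measured genes were higher and 1.94% lower. In this group 17 were above 0, with a median of 0.24. Slc11a1 (NRAMP1), which moves iron and manganese out of phagosomes, came nearest. It was 4.33 FPKM in CD93-positive and 1.88 FPKM in CD93-negative ILC3s. That is a log2 difference of 0.89 with 1 added to both values, and 2.31-fold by the ratio of FPKM. Slc39a1 was 39.3 and 25.6 FPKM, Slc39a14 was 19.9 and 12.4 FPKM, and Slc39a4 went the other way. Of 15 measured metal-handling genes outside the Slc families, none passed 2-fold. The ferritin chains Fth1 (369 and 211 FPKM) and Ftl1 (1206 and 649 FPKM) were higher in CD93-positive ILC3s by less than that.

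With 1 added to both values, none of the 34 mitochondrial SLC25 carriers passed 2-fold between the CD93 fractions. Of all measured genes 2.49% were higher and 1.94% lower by that limit. The median of the 34 was 0.10. The most abundant were the adenine nucleotide carrier Slc25a5, at 83.4 FPKM in CD93-positive and 61.3 FPKM in CD93-negative ILC3s, and the phosphate carrier Slc25a3, at 77.2 and 90.1 FPKM. Slc25a5 has near-identical copies elsewhere in the genome, and how reads shared between copies were counted is not given. Slc25a51, the mitochondrial NAD+ carrier, was 63.9 and 39.2 FPKM. The heart and muscle type adenine nucleotide carrier, Slc25a4, was 12.7 and 7.03 FPKM. Slc25a45 was 4.57 and 9.73 FPKM, past 2-fold by the ratio of FPKM but not with 1 added to both values. With 1 added, none of 23 measured genes for other mitochondrial channels, carriers and import proteins passed 2-fold either. These include the pyruvate carrier and VDAC genes.

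The remaining roles held smaller differences. Of 20 members of SLC35, a family known for nucleotide sugar carriers, 16 were above 0 with a median of 0.18 and none passed 2-fold. The family also holds carriers of other substrates, such as Slc35b1 for ATP and ADP. All 8 organic ion and bile acid carriers were below 0, with a median of -0.22 and a range from -0.86 to -0.01. The group includes the carnitine carrier Slc22a5, at 8.62 FPKM in CD93-positive and 9.14 FPKM in CD93-negative ILC3s, and the lysosomal sialic acid exporter Slc17a5, at 3.60 and 5.52 FPKM. These signs depend on the scaling. With both libraries at a common sum of FPKM the median of all genes moved from 0.04 to -0.15. The medians of the amino acid, mitochondrial, sugar, inorganic ion and vitamin groups then turned negative, while metal (0.10) and nucleotide sugar (0.06) carriers stayed above 0. This scaling lowers CD93-positive values relative to CD93-negative ones. The 8 organic ion carriers, already below 0, could thus not turn positive under it, and it is no check of their sign. Over the same 166 members that scaling gave 6 higher and 12 lower in place of 6 and 4. The common sum is larger than the deposited sums, so the added 1 also weighs less. With both libraries at the mean of their sums, 6 were higher and 7 lower.

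**Figure D3:**
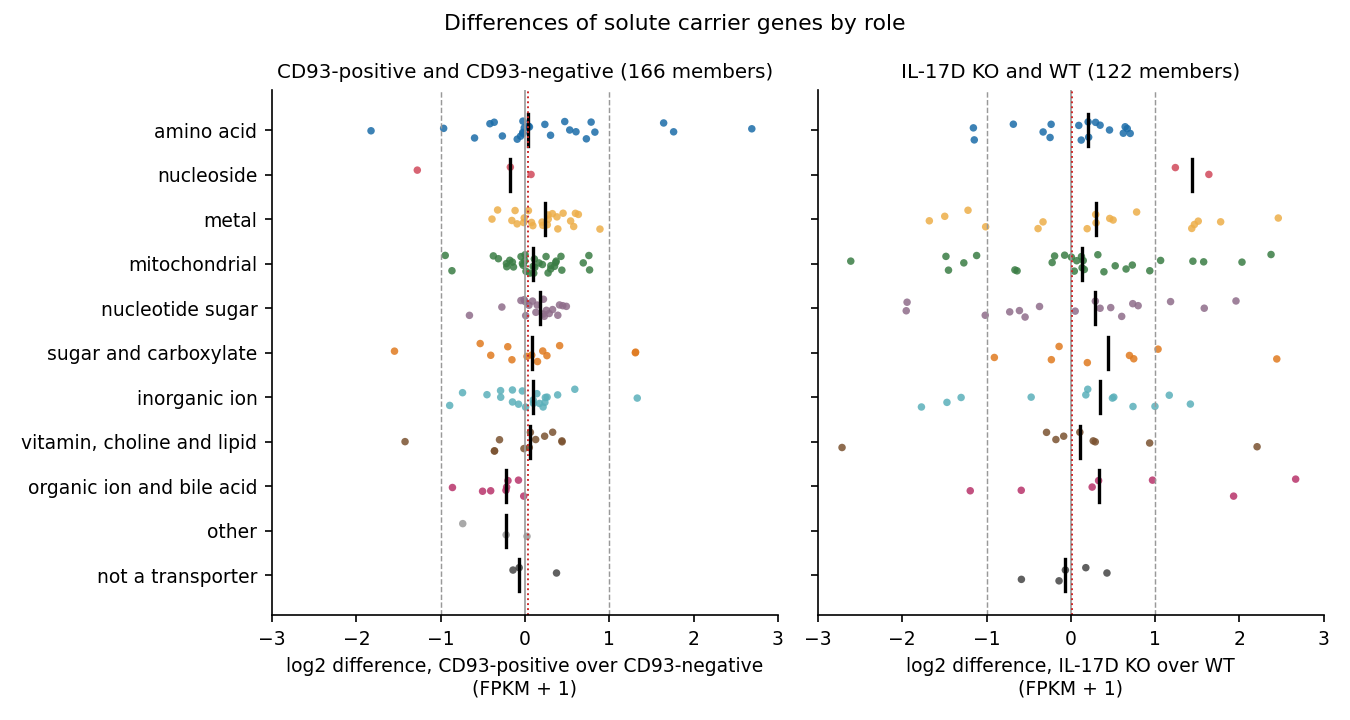
Log2 difference (FPKM + 1) of each solute carrier gene by role, CD93-positive over CD93-negative on the left and IL-17D KO over WT on the right. Black bars are medians, the dotted red line is the median of all measured genes and dashed lines mark 2-fold. Points lie mostly within 2-fold on the left, where metal and SLC25 carriers have none outside it, and are spread widely on the right.

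Between KO and WT ILC3s transporter genes passed 2-fold in both directions, at shares near those of all measured genes. The nucleoside carriers Slc29a1 and Slc28a2, the zinc carriers Slc30a5 and Slc30a6 and the glucose carrier Slc2a8 were higher in KO. The zinc carrier Slc39a9, the copper importer Slc31a1, the adenine nucleotide carriers Slc35b1 and Slc25a4 and the carnitine carrier Slc22a5 were lower. Of 122 members, 22 (18%) were at least 2-fold higher in KO, where 16.6% of all measured genes were. Another 19 members (15.6%) were at least 2-fold lower, where 12.7% of all measured genes were. As in the CD93 pair, both shares lie close to those of all genes. The median difference was 0.20 over the members and 0.01 over all measured genes. A common sum of FPKM moved the latter to 0.17 and gave 29 members higher and 17 lower. The mean of the sums gave 25 and 17. Of the 22 higher members, 13 were below 1 FPKM in WT, and of the 19 lower ones 12 were below 1 FPKM in KO, so many calls rest on 1 library with few or no reads.

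**Figure D4:**
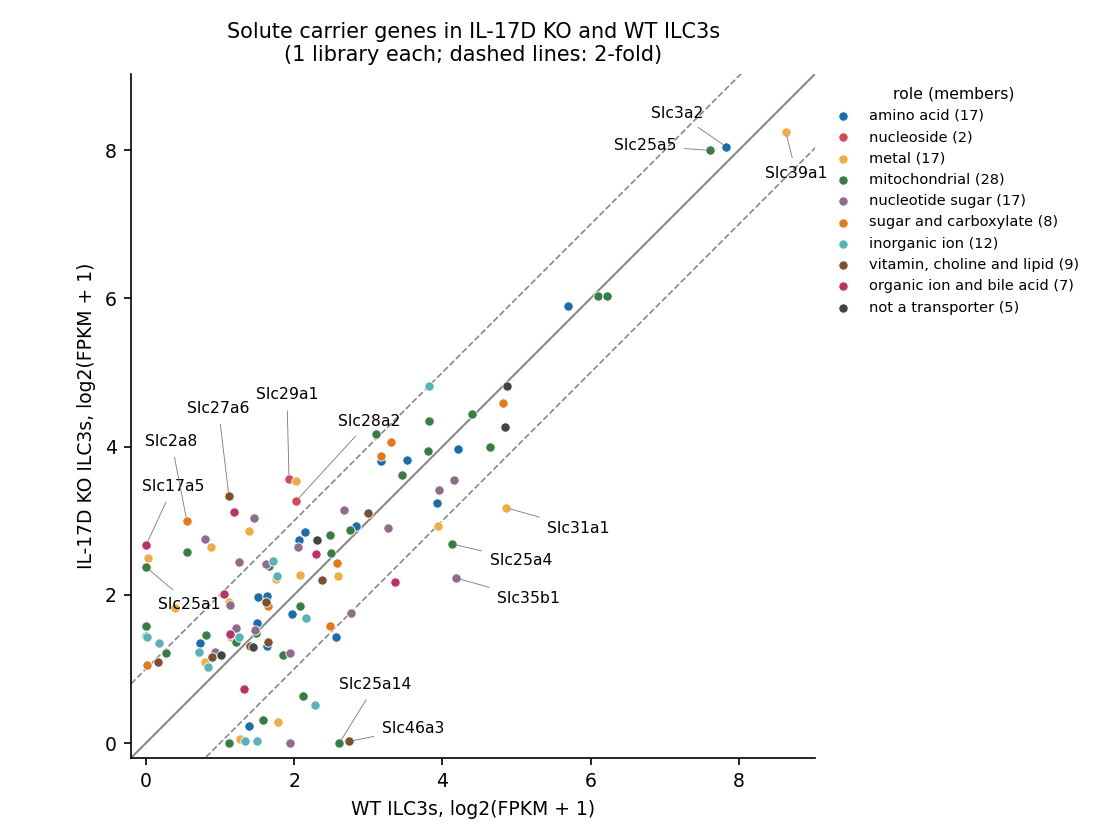
Levels of the 122 solute carrier genes in WT (x axis) and IL-17D KO (y axis) ILC3s, both as log2(FPKM + 1), coloured by role, with equality as a solid line and 2-fold as dashed lines. The most abundant genes, Slc39a1, Slc3a2 and Slc25a5, lie within 2-fold, and the points outside it lie at lower levels, some on an axis because 1 library is at 0.

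Such values also mark all genes of this pair. Among genes with 50 or more recovered reads over the pair, 5 of 114 members (4.39%) and 565 of 8079 genes (6.99%) were at 0 in 1 library. In the CD93 pair 0 of 161 members and 2 of 9651 genes were. In the KO pair, members with 100 to 1000 reads passed 2-fold in 24 of 61 cases (39.3%, all genes 40.8%), and those with 1000 to 10000 reads in 11 of 45 (24.4%, all genes 13.5%). None of the 6 with more reads did, where 4.39% of all genes did.

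Both nucleoside carriers measured were at least 2-fold higher in KO ILC3s, where 16.6% of all measured genes were. Slc29a1 (ENT1), the equilibrative carrier that takes up adenosine, was 10.9 FPKM in KO and 2.81 FPKM in WT ILC3s, a ratio of 3.86-fold (95% counting interval 3.40 to 4.40). Slc28a2 was 8.63 and 3.08 FPKM, 2.80-fold (2.48 to 3.18). Among 15 measured genes of nucleoside turnover, 1 was at least 2-fold higher and 2 lower, where 16.6% and 12.7% of all measured genes were. The higher one was Entpd1, the CD39 ectonucleotidase (4.23 FPKM in KO and 1.33 FPKM in WT). Pnp and Dck, which salvage purine and deoxynucleosides, were at least 2-fold lower (5.82 and 16.4 FPKM, and 0.392 and 2.25 FPKM).

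Of 17 metal carriers, 5 were at least 2-fold higher and 4 lower in KO ILC3s, where 16.6% and 12.7% of all measured genes were. Slc31a1 (CTR1), the copper importer, was 8.04 FPKM in KO and 27.9 FPKM in WT ILC3s, 3.48-fold lower (95% counting interval 3.23 to 3.74). Slc31a2, its relative that lies 62315 bases away on chromosome 4, was 0.0364 and 1.41 FPKM from 2 and 75 reads. Both copper carriers were thus lower in KO, and in the CD93 pair neither passed 2-fold (log2 differences of 0.21 and 0.39). Slc30a5 and Slc30a6, which form a zinc transporter of the secretory pathway together, were both higher in KO. Slc30a5 was 6.26 and 1.63 FPKM, 3.84-fold (3.39 to 4.37), and Slc30a6 was 5.27 and 0.830 FPKM. The magnesium carriers Slc41a3 (10.6 and 3.06 FPKM) and Slc41a1 (6.62 and 14.4 FPKM) went opposite ways.

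Slc39a1 (ZIP1), a zinc importer, was the most abundant member of this pair, at 302 FPKM in KO and 396 FPKM in WT ILC3s. It made up 18.7% of the summed FPKM of the members in KO and 25% in WT. Among 15 measured genes of metal handling, 2 were at least 2-fold higher and none lower, where 16.6% and 12.7% of all measured genes were. The 2 higher in KO were Mt1, a metal-binding metallothionein (5.80 and 1.88 FPKM), and Hmox1, the haem oxygenase (4.04 and 0.0876 FPKM).

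Of 28 SLC25 carriers, 5 were at least 2-fold higher and 5 lower in KO ILC3s, where 16.6% and 12.7% of all measured genes were. The abundant SLC25 carriers were near equal. Slc25a5 was 255 FPKM in KO and 194 FPKM in WT ILC3s, Slc25a3 was 64.2 and 73.6 FPKM, and the pyrimidine nucleotide carrier Slc25a36 was 64.2 and 67.6 FPKM. The best covered call was Slc25a20, which brings acylcarnitines into mitochondria. It was 17 and 7.61 FPKM, 2.24-fold higher (95% counting interval 2.07 to 2.41). Slc22a5, which brings carnitine into the cell, was 3.51 and 9.31 FPKM, 2.65-fold lower (2.31 to 3.05). Slc25a4 was 5.43 FPKM in KO and 16.6 FPKM in WT ILC3s, 3.05-fold lower (2.70 to 3.46).

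Several mitochondrial carriers were at 0 in 1 library of this pair. Slc25a14, an uncoupling protein relative, was 0 in KO and 5.11 FPKM in WT ILC3s from 315 reads, at least 109-fold lower against 3 reads in the empty library. Slc25a15, the ornithine carrier of the urea cycle, was at 0 in WT and 1.98 FPKM in KO ILC3s, at least 96.9-fold higher. Slc25a23, an ATP-magnesium and phosphate carrier, was 1.73 FPKM and 0, at least 79.5-fold higher. The citrate carrier Slc25a1 was 4.19 FPKM in KO and listed at 0 in WT. In the CD93 pair Slc25a15 was below 1 FPKM in both libraries and no member, and the other 3 were within 2-fold. Slc25a1 stood at 21.3 and 19.7 FPKM there, Slc25a14 at 2.74 and 2.80 FPKM, and Slc25a23 at 6.14 FPKM in both.

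Of 17 amino acid carriers in the KO pair, 0 were at least 2-fold higher and 2 lower, where 16.6% and 12.7% of all measured genes were. Their log2 differences ranged from -1.16 to 0.70. Slc15a3 was 1.69 FPKM in KO and 4.94 FPKM in WT ILC3s, 2.93-fold lower (95% counting interval 2.53 to 3.40). Slc43a2, a carrier of large neutral amino acids, was 0.173 and 1.61 FPKM. Slc3a2 was 263 and 227 FPKM, Slc38a1 was 58.5 and 50.6 FPKM, and Slc7a1 was 6.22 and 3.43 FPKM. Of 16 measured amino acid sensing and response genes 2 were higher in KO, with Asns at 6.22 and 0.0701 FPKM, and none was lower.

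Members of other roles passed 2-fold in both directions. Slc35b1, which exchanges ATP and ADP across the endoplasmic reticulum membrane, was 3.68 FPKM in KO and 17.1 FPKM in WT ILC3s, 4.65-fold lower (95% counting interval 4.02 to 5.41). Slc35c1, the Golgi GDP-fucose carrier, was 0 and 2.84 FPKM, at least 83.8-fold lower. Slc17a5, the lysosomal sialic acid exporter, was at 0 in WT and 5.35 FPKM in KO ILC3s from 524 reads, at least 169-fold higher. Slc2a8 (GLUT8), an intracellular glucose carrier, was 6.97 and 0.466 FPKM, 15-fold higher (10.8 to 21.3). The lysosomal Slc46a3 was at 1 read in KO and 363 reads in WT (0.0151 and 5.66 FPKM). Slc20a1, a sodium-phosphate cotransporter, stood at the limit with 27.1 and 13.1 FPKM, 2.07-fold by ratio and just under 2-fold with 1 added to both values. For the 10 members past 2-fold in this pair that share exon bases with another gene, Slc29a1, Slc15a3 and Slc43a2 among them, reads of the overlapping gene cannot be told apart.

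In all, 116 genes were members in both pairs, which share no library. Of the 10 members past 2-fold between the CD93 fractions, 8 were members in the KO pair. Slc15a3, Slc2a6, Slc6a13 and Slc9a7, all higher in CD93-positive ILC3s, were all lower in KO ILC3s, with a median of -1.03. Slc6a20a, Slc16a10, Slc28a2 and Slc27a6, all lower in CD93-positive ILC3s, were all higher in KO ILC3s, with a median of 0.97. Slc27a6 was 9.05 FPKM in KO and 1.17 FPKM in WT ILC3s. Slc6a20a was 13 and 7.98 FPKM, Slc16a10 was 13.6 and 8.03 FPKM, and Slc2a6 was 1.98 and 4.60 FPKM. Slc15a3, Slc9a7, Slc27a6 and Slc28a2 passed 2-fold in both pairs.

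Over all genes, 182 were 2-fold higher in CD93-positive ILC3s and measured in both pairs, and 54.4% of these were lower in KO. Of the 133 that were 2-fold lower in CD93-positive ILC3s, 56.4% were higher in KO. At least 2-fold lower in KO were 38 of the 182 and 22 of the 133, and at least 2-fold higher were 21 and 23. Over all 116 shared members the signs were opposite for 54 (46.6%, all genes 51.6%), so the pattern of the 8 was not that of the whole group. Epithelial markers had the direction of Slc6a20a, Slc16a10, Slc28a2 and Slc27a6 in both pairs: they were higher in KO (20.2 and 4.61 FPKM, 3 of 4 measured past 2-fold, with Cdh1 at 0 in KO) and their sum was lower in CD93-positive ILC3s. Epcam, the one past 2-fold there, was 2.25 and 2.35 FPKM in KO and WT. The sums of T cell and of pancreas markers had the same direction in both pairs. Other markers did not. Myeloid markers were higher in KO (59.1 and 11.8 FPKM) and also in CD93-positive ILC3s (31 and 22.8 FPKM). The stromal marker Lum was 0 in KO and 1.86 FPKM in WT, and was higher in CD93-positive ILC3s. Cd93 itself was lower in KO. Ccr9, which overlaps Slc6a20a, was 11.6 FPKM in KO and 3.87 FPKM in WT ILC3s. In the KO pair 5 of the enterocyte transporter genes were measured, of which Slc28a2 was at least 2-fold higher and Slc43a2 lower. The part of cell content in this pattern was not tested.

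**Figure D5:**
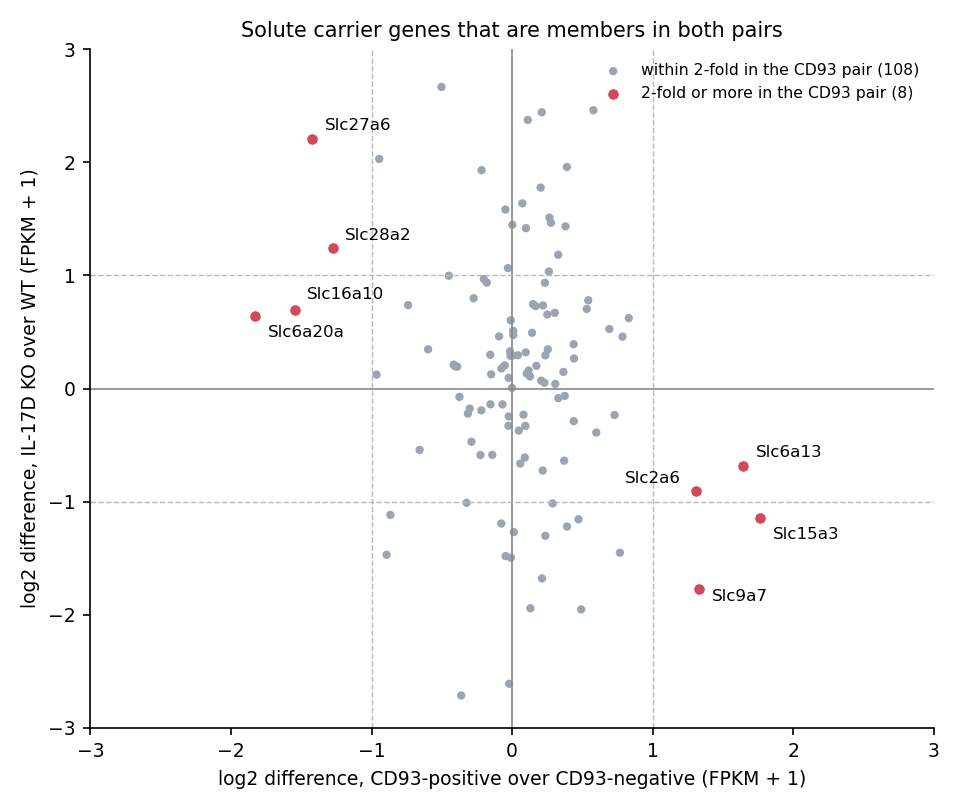
Log2 difference (FPKM + 1) of the 116 solute carrier genes that are members in both pairs, CD93-positive over CD93-negative on the x axis and IL-17D KO over WT on the y axis, with dashed lines at 2-fold. The 8 genes past 2-fold between the CD93 fractions (red) lie in the upper left and lower right, while the other 108 lie on both sides of both zero lines.

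Members just inside and outside the limit of 1 FPKM show how the choice falls. In the CD93 pair Slc7a7, a light chain for dibasic amino acids, was kept at 1.00 and 0.947 FPKM, and Slc37a1 was not at 0.979 and 0.995 FPKM. In the KO pair Slc9a2 was kept at 1.04 FPKM in KO and 0.779 FPKM in WT, and the lysosomal arginine sensor Slc38a9 was not at 0.987 and 0.204 FPKM. In the KO pair 86 members were at 1 FPKM or more in both libraries and 36 in only 1, against 153 and 13 in the CD93 pair.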

How the data were processed

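Total RNA of sorted ILC3s was extracted with Trizol, per the labels' protocols, and read on a BGISEQ-500. The authors deposited FPKM for each library and for each pair, and the joint tables equalled the single ones in every row. The submitters' processing notes name mm10 and the tools Bowtie2, featureCounts, Subread, edgeR and DESeq2, with no versions or settings. No source used here gives the annotation, the strand setting or how shared reads were counted. The gene sets of the pairs differ, so levels were compared within a pair only.

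From the FPKM, reads were recovered with GENCODE M21 exon lengths (Python 3.11.15, pandas 2.3.3, numpy 2.4.6, scipy 1.17.1, matplotlib 3.10.9). Between 91.9% and 98.2% of the values above 0 with a length were whole reads within 0.02 reads, and 114 of 122 and 162 of 166 members were whole in both libraries. The recovery was tested on simulated data. Differences are log2 of the ratio of FPKM + 1, which understates those of low genes, and 1 or more counted as 2-fold. Ratios are of FPKM, with 95% exact (Clopper-Pearson) intervals from the reads, or bounds against 3 reads where a library had 0. PCR reads without identifiers can be copies of 1 molecule, so these cover counting error only and set libraries, not conditions, side by side. No test was made. Promoters came from RefSeq (GRCm38.p6), with 90 of 122 and 123 of 166 members matched, and none was printed for some genes.

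Members, lists and roles were chosen with earlier results of these data known. Roles follow the family number. Names that are not transporters (5 and 3 members, such as Slc9a3r1) were counted apart. Named genes were the 12 highest and 12 lowest differences at 5 FPKM or more, the 12 most abundant, amino acid, nucleoside and metal carriers at 5 FPKM or more, a list of immune-cell carriers, members at 0 in 1 library, and SLC25 carriers that were among the 8 most abundant or past 2-fold. Slc9a7, Slc15a2, Slc16a10, Slc22a5, Slc25a14, Slc25a23, Slc37a4 and the members at the limit of 1 FPKM lie outside this rule in a pair where they are named. They were chosen after their values were seen. Other pseudocounts, filters, limits and scalings were tried, and an alternative without names that are not transporters and one with 1000 reads or more were added after seeing the data.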

Additional observations from a re-analysis of the deposited data

How the results depend on the processing

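Counts of members past 2-fold were 22 higher and 19 lower in KO, and 6 higher and 4 lower in CD93-positive ILC3s. In KO the higher count became 5 with a pseudocount of 5, 12 at 5 FPKM or more, 9 at 1 FPKM or more in both libraries, 10 at a 3-fold limit, 34 with a common sum of FPKM, and 6 at 1000 reads or more. The lower count became 5, 8, 7 and 6 under the first 4 of these and 5 at 1000 reads or more. In CD93-positive ILC3s the higher count became 10 with a pseudocount of 0.1, 3 at a 3-fold limit and 3 at 1000 reads or more. The lower count became 10 with a pseudocount of 0.1, 2 with a pseudocount of 5, 1 at a 3-fold limit, 7 with the mean of the sums, 18 with a common sum and 1 at 1000 reads or more. Other alternatives stayed within 1.5 times. The common sum is larger than the deposited sums. It thus also lets more genes reach the limit of 1 FPKM and makes the pseudocount weigh less. The alternatives with 1000 reads, and without names that are not transporters, were chosen after seeing the data. Of the 62 named genes of the KO pair, 60 to 62 kept their sign under other pseudocounts and scalings, and of 30 past 2-fold 28 to 30 stayed so, or 10 with a pseudocount of 5. Of the 68 of the CD93 pair, 60 to 68 kept their sign, and the 9 past 2-fold stayed so, or 7 with a pseudocount of 5. No paired analysis was possible because each group has 1 library. For the same reason no library could be left out, and depth limits most the members under 1 FPKM in a library.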
